A study of Mus musculus with 15 samples.

Results

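The lysosome is the compartment in which cells break down proteins taken up from outside or delivered from within, and the cathepsins are its main proteases. Most are made as inactive precursors and become active in the acid lumen, where they differ in catalytic type and in whether they cut inside a chain or trim its ends. The proximal tubule of the kidney reabsorbs filtered proteins by endocytosis and degrades them in lysosomes, and macrophages use a partly different set of cathepsins for antigen processing. Here 10 genes of lysosomal proteolysis were followed, chosen by name out of the 47069 genes of the table: the cathepsin genes Ctsa, Ctsb, Ctsc, Ctsd, Ctsh, Ctsl, Ctss and Ctsz, the asparaginyl protease gene Lgmn, and Lamp1, which encodes an abundant protein of the lysosomal membrane. Each symbol matched 1 row, and all 10 passed the filter of a mean of at least 1 TPM used for testing.

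RNA-Seq expression was measured in single proximal tubules dissected under the label PTS2 (12 libraries) and in whole kidney (3 libraries), all from male C57BL/6 mice aged 2 months. The study's title places the question in how genes selective for a cell type are represented in whole-kidney data. The PTS2 libraries form 3 sets named m1, m2 and m3 with 4 libraries each, and neither the meaning of m nor whether libraries came from separate animals is given in the labels, so p-values measure the spread between these libraries, which may be partly technical. Values are TPM, transcript abundance scaled for gene length and to a common total per library. They keep no sequencing depth, and the depth of each library is unknown.

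The tubule libraries carried proximal tubule markers at 140% of their summed kidney level (8 genes), and S3 markers at 236% (4 genes). S2 markers were at 86.2% (2 genes) and S1 markers at 5.83% (3 genes), where S1, S2 and S3 are the successive stretches of the proximal tubule. Markers within a sum differed. Of the 8 proximal tubule markers, 3 were higher, 1 was lower and 4 did not pass by limma, where 9.68% of all genes tested were higher and 41.5% lower. Slc27a2 was at 198% of kidney, Slc34a1 at 73.7% and Slc4a4 at 42.4%. Of the S2 markers, Slc22a6 was at 120% and Slc22a8 at 25.0%, and the S1 marker Slc2a2 was at 41.7%. Markers of the distal convoluted tubule, intercalated cell and podocyte stood at or below 0.736% of kidney, those of the principal cell at 3.03%, of fibroblasts at 2.98% and of endothelium at 14.2%. Library 3 of set m3 stood apart, with thick ascending limb markers summing to 1441 TPM against 4.75 to 55.8 TPM in the other 11 tubule libraries and a kidney mean of 2569 TPM. Among the 10 genes, the calls against kidney other than that of Ctsc are the same without it. Without that library Ctsc averaged 0.855 TPM in the other 11 tubules and passed the filter through kidney. Its call in that fit therefore carries no weight, and its difference is given both ways.

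Ctsh rose and Ctsl, Ctsz, Lgmn, Ctss and Ctsc fell in PTS2 tubules against whole kidney, and these 6 directions held under each scaling of the libraries that was tried. Ctsh averaged 609 ± 56.3 TPM (SD, n = 12) in tubules and 428 ± 22.1 TPM (SD, n = 3) in kidney. Ctsl averaged 344 ± 30.9 against 567 ± 22.1 TPM. Ctss and Ctsc, protease genes best known from immune cells, were at 9.32% and 4.94% of their kidney level, and Ctsc at 2.78% without library 3 of set m3. Lamp1 was the most abundant of the 10 and did not pass the test (1301 ± 116 against 1387 ± 61.0 TPM).

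**Figure D1:**
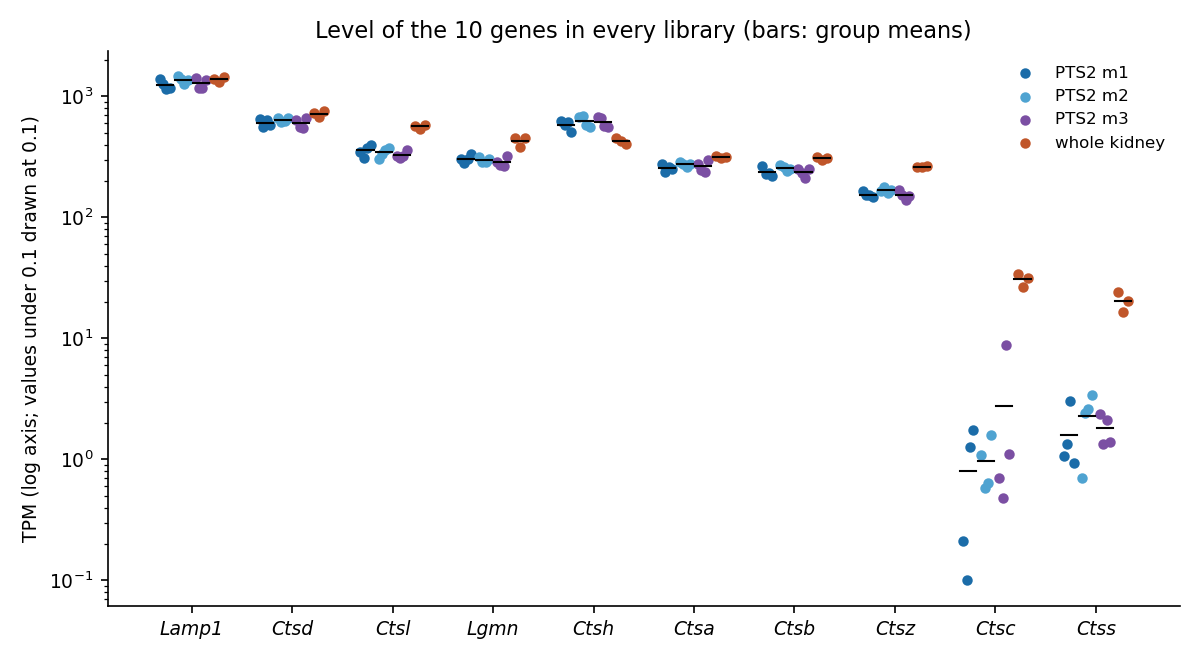
TPM of the 10 genes in each library on a log axis, with genes ordered by their whole kidney mean. Each point is a library, coloured by PTS2 set or whole kidney, and black bars are group means. Ctsh lies above kidney in all 12 tubules, Ctss and Ctsc lie far below it, and Lamp1 overlaps.

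By limma on log2(TPM + 1) with Benjamini-Hochberg adjustment over 12039 genes and a threshold of 0.05, 8 of the 10 genes were lower in PTS2, 1 was higher and 1 did not pass, where the median-of-ratios rescaling gave 5 lower and 2 higher and quantile normalization 9 lower and 1 higher. Over all genes tested the background was already high: 51.2% were called, 41.5% lower and 9.68% higher in PTS2. Groups did not overlap for 9 of the 10 genes, 8 lower and 1 higher, against 37.8% of all genes (32.0% lower, 5.76% higher). The median log2 difference was -0.44 over the 10 genes and -0.27 over all genes tested, so a lower call in TPM was common in this comparison. Median-of-ratios rescaling, which moves the median of all genes from -0.27 to -0.0031, called 47.2% of genes (23.8% lower and 23.5% higher), and quantile normalization, which moves it to 0.16, called 53.5% (18.9% lower and 34.6% higher). In these bulk samples, fewer cells of a type and less RNA per cell cannot be told apart.

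RefSeq promoter windows (GRCm38.p6) matched 8 of the 10 genes, all but Ctsb and Ctsh, in 10 windows of 300 bases that run from 250 bases before to 50 after a start. The windows were searched on both strands for CACGTG, the palindromic core of the element bound by TFEB and related regulators of lysosomal genes, for its longer form with GT before and AC after it, and for the core of the interferon-stimulated response element, 2 copies of GAAA set 2 bases apart. CACGTG was in 5 of the 10 windows and in 7.15% of 32851 windows in the RefSeq table, and the longer form was in none of the 10 and in 0.326% of all. Lamp1 held 4 copies of CACGTG within 61 bases of its start, a number reached or passed by 8 windows of the table (0.0244%). The stretches below are shown because they hold those matches, in capitals. A match is a description of the letters, and the motifs were chosen with the sequences in view.
Lamp1, chr8:13159080-13159160, plus strand, ending at the base before the start: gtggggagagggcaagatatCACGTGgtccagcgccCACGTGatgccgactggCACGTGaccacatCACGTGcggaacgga
Ctsd, chr7:142388055-142388077, minus strand, upstream of the start: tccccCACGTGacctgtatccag
Ctsd, chr7:142387908-142387937, minus strand, over an annotated Ctsd exon: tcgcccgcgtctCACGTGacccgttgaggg
Ctsa, chr2:164833749-164833772, plus strand, before the second listed start and over an annotated Ctsa exon: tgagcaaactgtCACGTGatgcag
Lgmn, chr12:102439116-102439161, minus strand, before the second listed start and within the gene but over no exon: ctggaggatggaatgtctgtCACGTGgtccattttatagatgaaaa
Ctsl, chr13:64370739-64370768, minus strand, over an annotated Ctsl exon: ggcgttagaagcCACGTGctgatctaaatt
Ctss, chr3:95526745-95526785, plus strand, ending at the base before the start, with the interferon-response core: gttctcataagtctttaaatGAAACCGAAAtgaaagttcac
The interferon-response core was in 3.44% of all windows and, among these genes, in the windows of Ctss and Lamp1. No match for either short motif was found in the windows of Ctsz and Ctsc.

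Ctsh (ENSMUSG00000032359; GRCm38 chromosome 9, 90054152 to 90076089, plus strand, by GENCODE M21, as for the other loci here) encodes cathepsin H, a cysteine protease that mainly trims amino acids from the amino terminus. Its 12 PTS2 values ran from 512.67 to 690.25 TPM with a median of 599 TPM, and the kidney values were 450.65, 427.41 and 406.4 TPM. Every tubule was above every kidney. The log2 difference was 0.50 ± 0.084 (SE; limma adjusted p = 0.000108), a 1.42-fold higher value, and it was 0.80 under median-of-ratios rescaling and 0.37 under quantile normalization. No annotated gene overlaps the Ctsh locus.

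Ctsl (ENSMUSG00000021477; chromosome 13, 64359337 to 64370890, minus strand) encodes cathepsin L, an endopeptidase with broad specificity that matures other lysosomal enzymes. The lowest tubule was at 306.71, the median at 341 and the highest at 400.33 TPM, against 571.78, 543.09 and 586.45 TPM in kidney. No tubule reached the lowest kidney. For Ctsl the log2 difference was -0.72 ± 0.080 (SE; limma adjusted p = 1.14e-06), a 1.65-fold lower value, and -0.43 under median-of-ratios rescaling.

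Ctsz (ENSMUSG00000016256; chromosome 2, 174427493 to 174439039, minus strand) encodes cathepsin Z, also called X, a carboxypeptidase. In tubules it ranged from 139.73 to 177.12 TPM around a median of 156 TPM, and the kidneys were at 261.74, 261.52 and 263.81 TPM, the narrowest spread of the 10 genes in kidney. The groups did not overlap. Ctsz fell by 0.73 ± 0.066 on the log2 scale (SE; adjusted p = 9e-08 by limma) and by 0.44 after median-of-ratios rescaling. Nelfcd overlaps Ctsz on the opposite strand and averaged 37.3 TPM in tubules and 30.1 TPM in kidney; whether the counting used strand is not given in the sources used here.

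Lgmn (ENSMUSG00000021190; chromosome 12, 102394084 to 102439813, minus strand) encodes legumain, which cuts after asparagine and processes several cathepsins to their mature forms. Tubules lay between 265.38 and 337.06 TPM with a median of 296 TPM, and the kidneys were at 451.61, 385.69 and 450.46 TPM. All tubules were below all kidneys. Lgmn fell by 0.53 ± 0.075 on the log2 scale (SE; adjusted p = 1.97e-05 by limma). The difference was -0.23 under median-of-ratios rescaling, where the call held.

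Ctsb (ENSMUSG00000021939; chromosome 14, 63122462 to 63145923, plus strand) encodes cathepsin B, an endopeptidase that also removes dipeptides from the carboxyl end. The 12 tubules lay between 213.81 and 273.67 TPM with a median of 246 TPM, and the kidneys were at 318.75, 298.46 and 311.84 TPM. The groups did not overlap. The log2 difference was -0.35 ± 0.072 (SE; adjusted p = 0.000743 by limma) in TPM as deposited and -0.056 (adjusted p = 0.522) after median-of-ratios rescaling, so the call depends on the scaling. Fdft1, on the opposite strand and overlapping Ctsb, averaged 11.3 TPM in tubules and 15.6 TPM in kidney.

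Ctsa (ENSMUSG00000017760; chromosome 2, 164832873 to 164841032, plus strand) encodes the carboxypeptidase that also protects the sialidase Neu1 and the beta-galactosidase Glb1 in a complex. PTS2 values ran from 239.42 to 300.81 TPM with a median of 269 TPM, against 320.56, 312.59 and 313.13 TPM in kidney, without overlap. The log2 difference was -0.25 ± 0.070 (SE; limma adjusted p = 0.00686), and under median-of-ratios rescaling the sign turned to 0.042 with an adjusted p of 0.597. Genes of its partners were higher in tubules: Neu1 averaged 376 ± 31.4 TPM in tubules and 319 ± 2.34 TPM in kidney (limma adjusted p = 0.0158, a call not kept under quantile normalization), and Glb1 281 ± 35.0 against 176 ± 9.63 TPM (adjusted p = 8.6e-05). Neu1 was singled out here after its values were seen.

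Ctsd (ENSMUSG00000007891; chromosome 7, 142375911 to 142388038, minus strand) encodes cathepsin D, the main aspartic protease of the lysosome. In tubules the lowest value was 547.39, the median 632 and the highest 666.97 TPM, and the kidneys were at 733.3, 671.95 and 762.57 TPM. The highest tubule came close to the lowest kidney but did not reach it. The log2 difference was -0.23 ± 0.074 (SE; limma adjusted p = 0.0150), and it turned to 0.060 under median-of-ratios rescaling (adjusted p = 0.538), and the call was lost without kidney replicate 1 (adjusted p = 0.0614) or kidney replicate 3 (adjusted p = 0.0923).

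Lamp1 (ENSMUSG00000031447; chromosome 8, 13159161 to 13175338, plus strand), the gene with the 4 promoter copies of CACGTG shown above, ranked 107th of 47069 genes by mean TPM in tubules and 89th in kidney. Tubule values spanned 1144.38 to 1477.33 TPM with a median of 1311 TPM, and the kidneys were at 1385.51, 1326.89 and 1448.94 TPM, inside the tubule range. The log2 difference was -0.10 with a 95% confidence interval from -0.27 to 0.075 (limma adjusted p = 0.334). Its sign depends on the scaling: 0.20 under median-of-ratios rescaling (adjusted p = 0.0397) and -0.25 under quantile normalization (adjusted p = 0.00698). Grtp1 overlaps Lamp1 on the opposite strand at 104.5 TPM in tubules and 71.8 TPM in kidney.

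**Figure D2:**
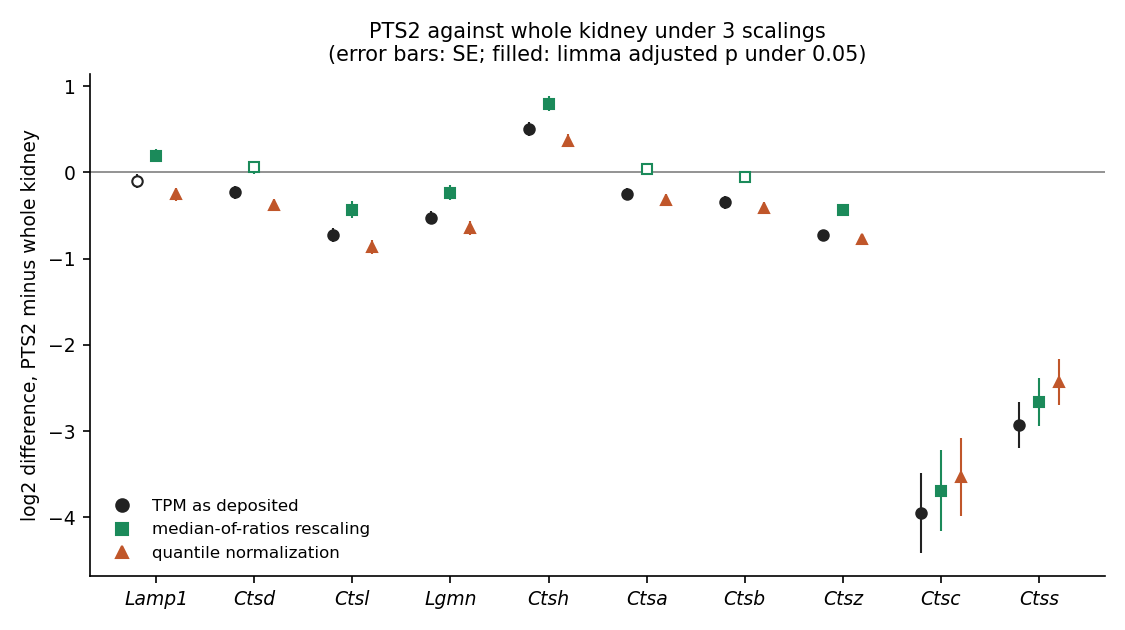
Log2 difference of each gene, PTS2 minus whole kidney, from TPM as deposited and from 2 rescalings. Points are limma estimates, error bars are SE, and filled points have an adjusted p under 0.05. Ctsh stays above 0 and Ctsl, Lgmn, Ctsz, Ctsc and Ctss stay below it, while Lamp1, Ctsd and Ctsa change sign between scalings and Ctsb loses its call under median-of-ratios rescaling.

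Ctss (ENSMUSG00000038642; chromosome 3, 95526786 to 95556403, plus strand) encodes cathepsin S, which cleaves the invariant chain in antigen-presenting cells and works near neutral pH. PTS2 values ran from 0.7 to 3.39 TPM with a median of 1.76 TPM, and the kidneys were at 24.03, 16.64 and 20.42 TPM. Even the highest tubule was far below the lowest kidney. The log2 difference on the log2(TPM + 1) scale, which understates changes of low genes, was -2.93 ± 0.27 (SE; limma adjusted p = 1.01e-07), and by mean TPM the kidney was 10.7-fold higher.

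Ctsc (ENSMUSG00000030560; chromosome 7, 88278085 to 88310888, plus strand) encodes cathepsin C, the dipeptidyl peptidase that activates the granule proteases of immune cells. Library 3 of set m3 had 8.82 TPM, the other 11 PTS2 libraries ran from 0 to 1.76 TPM with a median of 0.7 TPM, and the kidneys were at 33.78, 26.56 and 31.83 TPM. All tubules were below all kidneys, and the log2 difference was -3.95 ± 0.47 (SE; limma adjusted p = 2.28e-06). Without library 3 of set m3 the log2 difference was -4.15, and the other 11 tubules averaged 0.855 ± 0.554 TPM (SD, n = 11), 2.78% of kidney, a level at which Ctsc passed the filter through kidney. In that library, which carried thick ascending limb markers at 56.1% of kidney, Ctsc was at 28.7% of kidney, while Ctss (2.13 TPM) and the macrophage marker sum (103 TPM) lay within the range of the other tubules. The part of those cells in its Ctsc value was not tested.

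Markers of macrophages and dendritic cells other than Csf1r were also at a low share of their kidney level in tubules. Of 9 markers, 6 were tested: 5 were lower in PTS2 and 1, Csf1r, was higher (39.1 ± 14.8 against 21.1 TPM; limma adjusted p = 0.0481, and 0.0599 without library 3 of set m3), and all 9 summed to 69.0 to 147.5 TPM in tubules and 450.96 to 562.07 TPM in kidney. Beside these counts and those of the endothelial markers below, 41.5% of all genes tested were lower and 9.68% higher in PTS2. The 8 markers other than Csf1r had mean levels of 8.04% to 12.3% of kidney, with a median of 10.2%, and Ctss stood at 9.32%. Ctsc, at 4.94%, stood below that range, and over the 12 tubules its Pearson r with Ctss was 0.20. Laptm5, a lysosomal membrane protein of blood cells, was at 9.24%, Cd68, a macrophage lysosomal glycoprotein, at 15.9%, and the cathepsin gene Ctsk at 6.50%. None of the 9 markers was at 0 in the PTS2 mean. The 5 tested endothelial markers were lower in PTS2 as well, with the list at a mean of 13.2% of kidney in 11 tubules. Its sum in library 3 of set m3 was 38.64 TPM (25.1%), within the 11.57 to 41.23 TPM of the other 11. The part of these cells in the Ctss and Ctsc results was not tested. Over the 12 tubules, the pattern most like that of Ctss was that of Cd74, the invariant chain gene (r = 0.84). Leprot came next (r = 0.79), among the 6446 genes of at least 10 TPM.

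**Figure D3:**
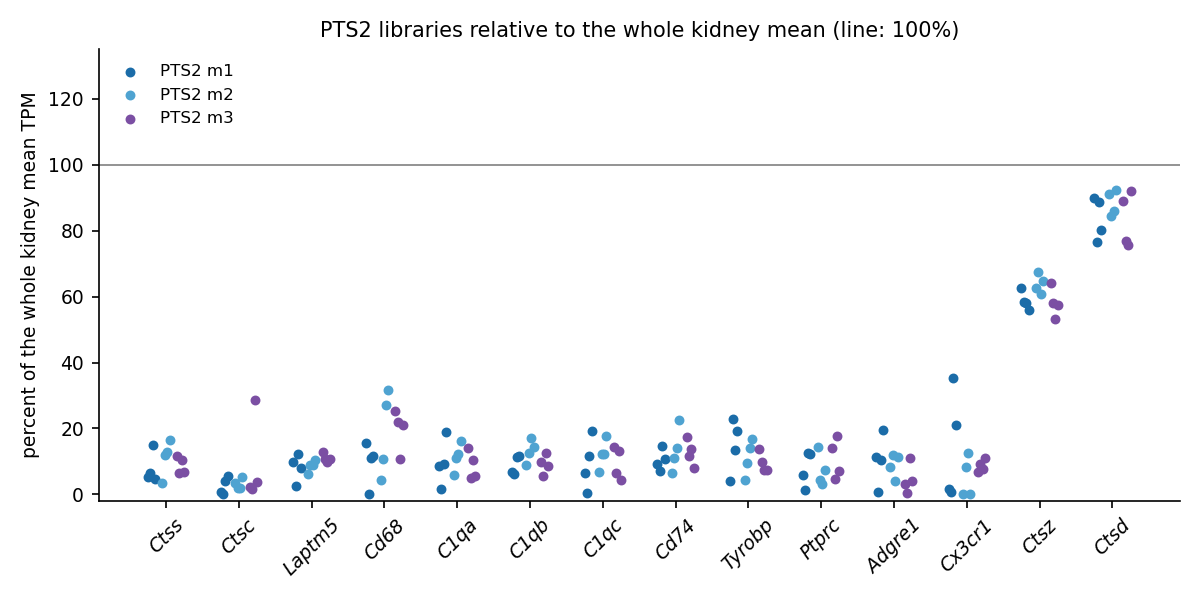
Level of Ctss, Ctsc, 2 lysosomal genes of blood cells, 8 macrophage and dendritic cell markers, and Ctsz and Ctsd for comparison, in each PTS2 library as a percent of the whole kidney mean TPM. The line marks 100%, and Csf1r, at 186%, is not drawn. Ctss, Ctsc, Laptm5, Cd68 and the 8 markers have means between 4.94% and 15.9%, with Ctsc at 28.7% in library 3 of set m3, while Ctsz (60.3%) and Ctsd (85.2%) sit far above them.

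Ratios between genes of a library do not change when the library is multiplied by a factor, as in median-of-ratios rescaling, though quantile normalization can change them. These ratios were added after the data were seen. The ratio of Ctsh to Ctsl was 1.79 ± 0.288 (SD, n = 12; range 1.28 to 2.20) in tubules and 0.756 ± 0.0546 (SD, n = 3; range 0.693 to 0.788) in kidney, without overlap. Ctsh relative to Lamp1 was 0.470 in tubules and 0.309 in kidney, Ctsl relative to Lamp1 0.267 against 0.409, and Ctsz relative to Lamp1 0.122 against 0.189, and these groups did not overlap either. Ctsa relative to Ctsd was 0.432 ± 0.0141 in tubules and 0.438 ± 0.0273 in kidney, and overlapped. So did Ctsa and Ctsd relative to Lamp1. Ctsb relative to Lamp1 was 0.188 in tubules and 0.223 in kidney, and Lgmn relative to Lamp1 0.230 against 0.309, both without overlap.

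**Figure D4:**
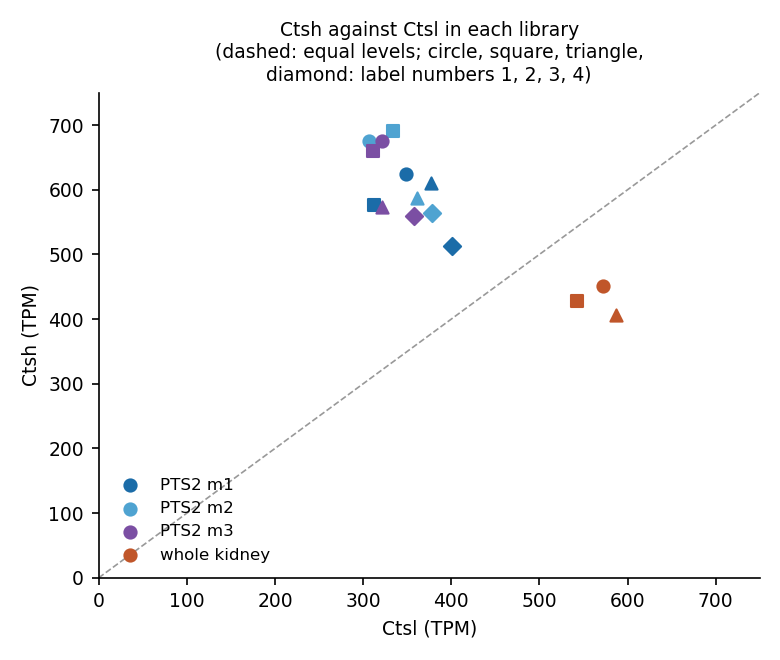
Ctsh against Ctsl in each library, in TPM, with colour for the PTS2 set or whole kidney, shape for the number in the label and a dashed line at equal levels. All 12 tubules lie above the line, at ratios from 1.28 to 2.20, and the 3 kidneys below it, at 0.693 to 0.788.

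By mean TPM, the order in tubules was Lamp1, Ctsd, Ctsh, Ctsl, Lgmn, Ctsa, Ctsb, Ctsz, Ctss and Ctsc, and in kidney it was Lamp1, Ctsd, Ctsl, Lgmn, Ctsh, Ctsa, Ctsb, Ctsz, Ctsc and Ctss. Ctsd and Ctsh did not separate in tubules: Ctsd was the higher in 6 of 12 libraries and their means differed 1.01-fold. Ctsl was above Lgmn in 11 of 12 tubules. The ranges of Lgmn and Ctsa, and of Ctsa and Ctsb, overlapped, though the first of each pair was higher in 12 of 12 tubules. In kidney Lgmn and Ctsh did not separate (Lgmn higher in 2 of 3). The 10 genes together summed to 3839 ± 224 TPM in tubules and 4473 ± 176 TPM in kidney (0.384% and 0.447% of all TPM), 85.8% of kidney, and 105% of kidney under median-of-ratios rescaling. Ctsh made up 15.9% ± 1.29 of that sum in tubules and 9.58% ± 0.644 in kidney.

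Across the 3 PTS2 sets, no member passed the limma F test (adjusted p from 0.472 to 0.804; 11300 genes tested), and none had an unadjusted p under 0.05, against a background of 3.02% of genes called and 16.4% at that unadjusted p. For the 8 abundant members the 24 pairwise differences between sets lay between -0.13 and 0.15 on the log2 scale, with 95% confidence bounds out to -0.32 and 0.33. Lamp1 had the largest of these, 0.15 between m2 and m1 with an interval from -0.040 to 0.33. Its libraries were at 1402.65, 1257.16, 1144.38 and 1172.89 TPM in m1, at 1477.33, 1398.18, 1260.38 and 1368.69 TPM in m2, and at 1417.51, 1177.04, 1178.1 and 1360.67 TPM in m3, so the sets overlapped. In the pairwise contrasts no member was called, against 0.54% of all genes for m2 and m1, 3.17% for m3 and m1 and 1.97% for m3 and m2.

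The tubule libraries carry a number from 1 to 4 within each set, whose meaning the labels do not give, and a test of it was added after the data were seen. Ctsh was lowest in library 4 of each set, where it was at 512.67 TPM (m1), 564.23 TPM (m2) and 559.22 TPM (m3). Ctsl was highest in the same libraries, at 400.33, 377.61 and 358.14 TPM. Lamp1 and Ctsb were each highest in library 1 of every set. By a limma F test with set and number as terms, none of the 10 genes passed (adjusted p = 0.123 for Ctsh and 0.156 for Ctsl), against 2.71% of all genes. Between numbers 4 and 1 alone, where 4.76% of all genes were called, Ctsh differed by -0.27 on the log2 scale (limma adjusted p = 0.0466), by -0.20 (adjusted p = 0.153) under median-of-ratios rescaling and by -0.26 (adjusted p = 0.0336) under quantile normalization. Ctsl differed by 0.22 (limma adjusted p = 0.114), by 0.29 (adjusted p = 0.0497) and by 0.25 (adjusted p = 0.0657) in the same order. With each of the 12 libraries left out in turn, Ctsh was called in 3 fits (adjusted p from 0.0286 to 0.173) and Ctsl in 0 (0.0606 to 0.458).

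Within the 12 tubules some members varied together, as a description over libraries that share a scaling. Pearson's r on log2 values over the 12 libraries was 0.90 for Ctsa and Ctsd and 0.89 for Ctsb and Lamp1. For the 28 pairs of the 8 abundant members it ran from -0.66 to 0.90, with a median of 0.55. For the 10 pairs of Ctsa, Ctsb, Ctsd, Ctsz and Lamp1 alone it ran from 0.58 to 0.90. The level of r between genes in general was not tested. Ctsh and Ctsl went opposite ways (r = -0.66). By likeness of pattern, Ctsa was nearest to Tpp1, the lysosomal tripeptidyl peptidase (0.94), and Zfp942 (0.94). Ctsb was nearest to Lamp2 (0.96) and Hus1 (0.92), and Lamp1 to Zfp24 (0.97) and the sialidase gene Neu1 (0.94). How high the nearest of 6446 genes would come by chance was not tested. Ctsh was nearest to the transporter gene Slc6a13 (0.96) and the glutathione synthetase gene Gss (0.95), and Ctsl to Renbp (0.93). Ctsd was nearest to Ubap1 (0.91), Ctsz to Zfp35 (0.85) and Lgmn to Ank3 (0.92). The genes nearest to Ctsc, Mt1 (0.85) and Slc12a1 (0.83), were at 0.52 and 0.22 without library 3 of set m3.

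Other lysosomal genes were counted from lists chosen by function. Of 96 such genes, 80 were tested; 12 were higher, 31 lower and 37 did not pass in PTS2, median-of-ratios rescaling gave 26 higher and 18 lower, and quantile normalization 22 and 22. In TPM as deposited this is 53.8% called and 38.8% lower, against 51.2% and 41.5% of all genes, and 12 of 80 higher against 9.68% of all genes. Under median-of-ratios rescaling 32.5% were higher and 22.5% lower, against 23.5% and 23.8% of all genes. Under quantile normalization 27.5% were higher and 27.5% lower, against 34.6% and 18.9% of all genes. In TPM as deposited without library 3 of set m3, 12 were higher and 29 lower. Of the lower genes, 4 (Ctsk, Sort1, Cd68 and Arsa) averaged under 1 TPM in tubules and passed the filter through kidney, so their levels are given as values only. Leaving them out gave 12 higher and 27 lower of 76. Among 14 other cathepsin genes only 3 passed the filter: Ctsk was at 0.265 against 4.08 TPM, and Ctsf (71.0 against 78.6 TPM) and Ctso (24.8 against 30.3 TPM) did not pass. All 3 tested cathepsin inhibitors were lower, 2 of them under median-of-ratios rescaling as well. Cst3, cystatin C, averaged 304 ± 27.6 TPM in tubules and 531 ± 24.1 TPM in kidney (log2 difference -0.81, limma adjusted p = 7.55e-07), and Serpinb6a differed by -1.55. Of 7 other peptidases, 1 was lower, Scpep1 (log2 -0.65), and 6 did not pass, and under median-of-ratios rescaling 2 were higher.

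The glycosidases, sulfatases and lipases of the lysosome went both ways. Of 30 tested, 8 were higher and 10 lower in TPM as deposited, where 9.68% of all genes were higher and 41.5% lower. The lower counts of this list include Arsa, which passed the filter through kidney and is given as a value only. Under median-of-ratios rescaling 15 were higher and 6 lower, where 23.5% of all genes were higher and 23.8% lower. Without library 3 of set m3, 9 were lower, since Gla no longer passed (limma adjusted p = 0.0586). Galns (log2 difference 1.05) and Glb1 (0.66), which act on sulfated sugars and galactosides, and the acid phosphatase gene Acp5 (0.63) had the largest rises. Hexa, a lysosomal glycosidase gene, averaged 2.30 ± 0.787 TPM in tubules and 58.1 ± 4.85 TPM in kidney (log2 difference -4.20 ± 0.21 SE, limma adjusted p = 4.49e-11). Pla2g15 also fell (-1.65), and Arsa was at 0.833 against 8.61 TPM.

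Of 18 tested lysosomal membrane proteins, none was higher, 6 were lower and 12 did not pass, and median-of-ratios rescaling gave 4 higher and 5 lower. For this list and those below, 9.68% of all genes were higher and 41.5% lower in TPM as deposited. Under median-of-ratios rescaling these shares were 23.5% and 23.8%. Lamp2 was at 994 ± 84.7 against 984 ± 59.0 TPM. Laptm5 (-2.74) and Cln3 (-1.79) fell. Cd68, counted among the lower genes though it passed the filter through kidney, was at 0.782 against 4.91 TPM. Of 9 sorting genes, 1 was higher and 4 lower (2 and 2 under median-of-ratios rescaling). The lower counts include the trafficking receptor gene Sort1, which passed the filter through kidney and was at 0.567 against 10.4 TPM. Gnptab, needed for the mannose phosphate tag, had a log2 difference of -0.76, a call lost under quantile normalization. Of 7 tested regulator genes, 2 were higher and 4 lower, and 2 higher and 1 lower under median-of-ratios rescaling. Tfec, related to Tfeb, rose by 0.45 and the Rag GTPase gene Rragd fell by 1.74. Of the 3 activator and carrier genes, Gm2a, the ganglioside activator, rose by 0.61, and Psap and Npc2 were lower in TPM as deposited, with calls lost under median-of-ratios rescaling, and the Psap call also without library 3 of set m3 (limma adjusted p = 0.0536).

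**Figure D5:**
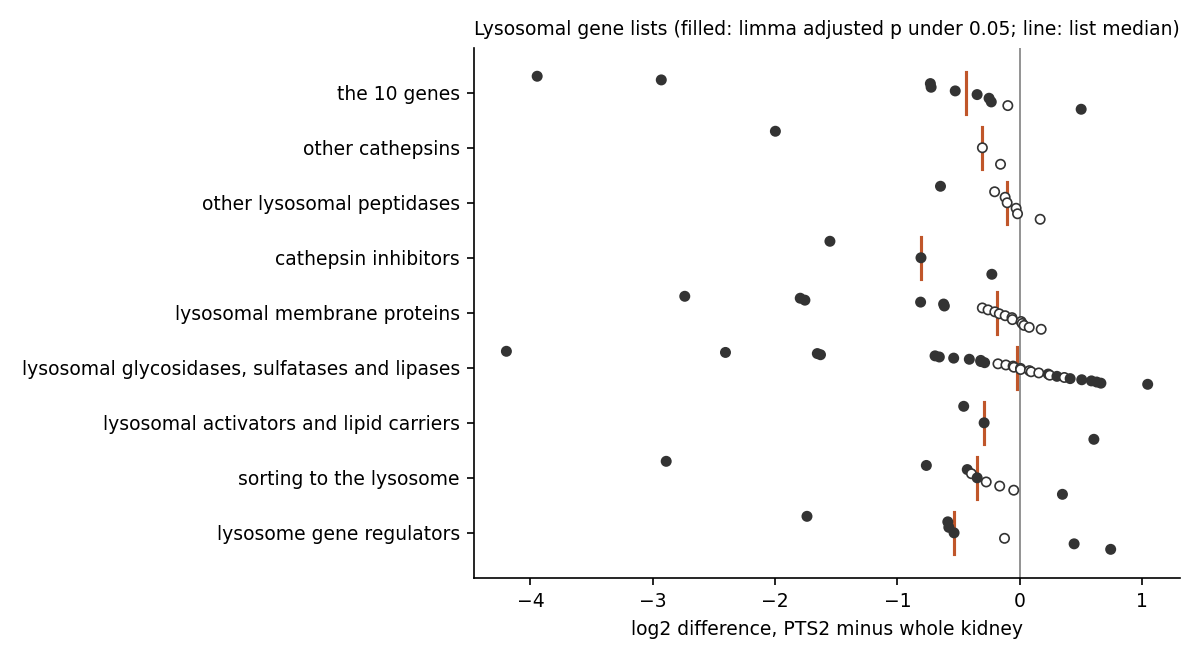
Log2 difference, PTS2 minus whole kidney, for each tested gene of the lysosomal lists. Filled points have a limma adjusted p under 0.05, and the coloured line is the list's median, with 4 lower genes that passed the filter through kidney drawn too. Among the 10 genes Ctsh is to the right of 0, and the enzyme list spreads from Hexa at -4.20 to Galns at 1.05. Values are TPM as deposited, and under median-of-ratios rescaling Ctsa, Ctsd and Lamp1 change sign.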

How the data were processed

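Expression was measured by RNA-Seq of cDNA made with a kit for very low input. The authors deposited one table of TPM; per the submitters' processing notes STAR 2.5.1b and RSEM 1.2.31 were used on GRCm38.p5. The means and standard errors that the authors deposited beside them (signal over pooled libraries) were not used. TPM were used as given, with log2(TPM + 1), so depth and counting error are unknown, and no count test was run. The tests were limma 3.58.1 (R 4.3.3; trend, Benjamini-Hochberg over all genes, threshold 0.05) where the mean reached 1 TPM, with the set as a correlated block (correlation 0.0669) for PTS2 against kidney, and an F test for the sets. The fits were tested on simulated data. The 10 genes, lists and tests were chosen with earlier results of these data known. Genes outside the 10 were named by up to 3 per list, direction and comparison, with an adjusted p under 0.05, no overlap of libraries and the largest differences. The 2 genes nearest each member by r over 12 tubules, among 6446 genes of at least 10 TPM, were found too. Alternatives were a pseudocount of 0.1, other filters, median-of-ratios and quantile scaling, mitochondrial genes left out, set and replicate blocks, single sets and each library left out. Figures used matplotlib 3.10.9.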

Additional observations from a re-analysis of the deposited data

Results flagged for a closer look

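In 4-library sets, a library whose distance from its nearest neighbour passed Dixon's limit was marked, and chance marks about 1 in 20; 6 of 120 tests were marked, as many as the 6 expected. Ctsc was at 8.82 TPM in library 3 of set m3, and the next library of the set was at 1.11 TPM. Gusb, a lysosomal beta-glucuronidase gene, was lowest in library 4 of set m2 at 43.98 TPM, next to 51.34 TPM. The thick ascending limb marker sum was 1440.62 TPM in library 3 of set m3 and 55.83 TPM in library 4 of set m1, next to 17.1 and 10.61 TPM. Library 4 of set m3 had the highest sums of S1 markers (70.69 TPM, next 41.12) and of S2 markers (1023.86 TPM, next 445.96) in its set.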

How the results depend on the processing

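For the 10 genes, 261 of 268 values from the alternatives kept their direction and their side of the threshold. Of the others, 3 reversed under median-of-ratios rescaling: Ctsa to 0.042, Ctsd to 0.060 and Lamp1 to 0.20, with 5 members lower and 2 higher and the sum of the 10 at 105% of kidney; the rescaling centres the median of all genes at -0.0031. Leaving out each library in turn gave 7 to 8 members lower and 1 higher, 8 to 9 called. In those fits 4761 of 11886 to 6712 of 12097 genes were called. Without library 3 of set m3 the lower members include Ctsc, which passed the filter there through kidney. The sum was 83.9% to 87.0% of kidney, and 4 to 6 members were at the same rank in both groups. No member was called among the sets in any of 19 alternatives (0 to 0). With a filter of 10 TPM, 7 members were called, since Ctss and Ctsc were not tested in it, and 3113 of all 6737 genes tested were called. Deviations of same-numbered tubules correlated at 0.138 on average over 12 pairs (0.0209 to 0.281, 7 over 0.1) and at -0.0463 over 36 other pairs, and 9 of 12 libraries correlated best with their own number. Not every pair passed 0.1 and the labels give the numbers no meaning, so the samples were not treated as paired. With the replicate block, 9 members were called against kidney (8 lower, 1 higher), where 6292 of all 12039 genes tested were called. Among the sets 0 members were called with that block, where 888 genes were called instead of 341. The other named genes kept their call in 599 of 649 values, and 50 were weaker. Depth is unknown, so no counting error can be given.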

Other observations

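Over the 12 tubules, proximal tubule markers moved with Ctsh and Ctsl, in pairs picked after the data were seen. Ctsh correlated at 0.88 with Slc22a13 and 0.77 with Slc7a13, S3 markers, and at -0.84 with Slc22a6, an S2 marker. Ctsl correlated at 0.85 with Slc22a6 and -0.70 with Slc22a13. Slc34a1, a marker of the whole proximal tubule, correlated at -0.83 with Ctsh and 0.79 with Ctsl. These markers also followed the library number: in library 4 of each set Slc22a6 and Slc34a1 were highest and Slc22a13 was lowest. These are descriptions over libraries that share a scaling, and the part of tubule position in the levels of Ctsh and Ctsl was not tested.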
